A study of Mus musculus with 16 samples.

Results

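The genes described here are the 34 constitutive proteasome genes of a mouse liver array study, taken from 18820 genes with a probe set that carries 1 gene symbol. They are the genes whose symbol is Psma, Psmb, Psmc or Psmd followed by a number, without the immunoproteasome genes Psmb8, Psmb9, Psmb10 and Psmb11. For a gene with several such probe sets, the brightest on average over the 16 arrays stood for it. The pattern matched 35 symbols, and the 1 left unmeasured by this rule was Psma4, whose only probe set also carries the symbol AY074887. The 34 genes were 7 of the alpha ring and 7 of the beta ring of the core particle, 6 ATPases and 3 scaffold or receptor subunits of the cap's base, 8 subunits of the cap's lid, and 3 assembly chaperones.

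The proteasome is the protease that breaks down ubiquitin-tagged proteins in the cytosol and nucleus. Its barrel-shaped core is closed at both ends by rings of alpha subunits and holds the cutting sites of Psmb5, Psmb6 and Psmb7 on the inner face of its beta rings. The regulatory cap binds ubiquitin chains, removes them, unfolds the substrate with a ring of ATPases and threads it into the core. In liver it turns over cell protein alongside autophagy, and the transcription factor Nfe2l1 is known to act on the subunit genes.

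The samples were livers of male mice aged 14 to 16 weeks on a C57Bl/6J background, housed one to a cage on standard chow. The 4 groups of 4 arrays were fed wild type, fed vanin-1 null, fasted wild type and fasted vanin-1 null, called fed WT, fed KO, fasted WT and fasted KO below. Fasting lasted 24 h. The labels call the knockout vanin-1 null and name no restriction to a cell type; vanin-1 is a pantetheinase encoded by Vnn1. The values were log2 intensities made by RMA (robust multi-array average), and each array is called by its group and the number in its title. Separate animals per array are not stated in the labels, so a p-value here reflects the spread among these arrays, which may be technical. Whole liver was sampled, so fewer cells of a type and less RNA per cell cannot be told apart.

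The targeted gene Vnn1 read between 3.67 and 4.26 on the 8 knockout arrays and between 6.71 and 11.47 on the 8 wild type arrays. The 7 measured hepatocyte markers gave array means between 12.97 and 13.25. On the array fasted WT 4 the 5 measured exocrine pancreas markers had a mean of 8.54, against 3.63 to 3.97 on the arrays of the other groups. Ctrb1, 1 of them, read 10.12 on fasted WT 4 and 4.07 to 4.31 on the other fasted WT arrays. The array fed KO 4 had the highest mean of the 3 measured acute phase genes, at 12.72. On fed KO 1 Saa2 and Orm2 were also high, at 12.06 and 11.35. They read 7.50 to 7.87 and 7.99 to 8.09 on fed KO 2 and fed KO 3. On fed WT 2 Saa2 read 10.94 and Lcn2 9.47. Fasted KO 2 had Saa2 at 9.99 and Orm2 at 9.45, against 6.14 to 6.31 and 7.47 to 8.14 on the other fasted KO arrays. Fasted WT 4 had Saa2 at 9.49 and Orm2 at 9.01, against 6.80 to 8.33 and 7.87 to 8.04 on the other fasted WT arrays. The deposited names of fasted KO 1, fed WT 2 and fed KO 4 end in 2, a suffix whose meaning is not stated. The main counts are therefore also given without these arrays.

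Promoter sequences on the assembly GRCm38.p6 were available from RefSeq for 27 of the 34 genes. Those of Psmd4, Psmd9, Psma7 and Psmc2 are shown because these genes were higher after fasting in both genotypes with the smallest summed p-values among members that have a promoter in the table. Each run is the 250 bases before the start, 5′ to 3′ on the strand of the gene. Capitals mark matches to the antioxidant response element (TGACNNNGC or TGAGNNNGC), the CCAAT box (CCAAT) and the GC box (GGGCGG), each searched on both strands. Psmd4 lies on the minus strand at chr3:95042615-95042864, Psmd9 on the plus strand at chr5:123227940-123228189, and Psma7 on the minus strand at chr2:180042465-180042714. Psmc2 lies on the plus strand and has a pair of annotated starts, with windows at chr5:21785025-21785274 and chr5:21786497-21786746.
Psmd4: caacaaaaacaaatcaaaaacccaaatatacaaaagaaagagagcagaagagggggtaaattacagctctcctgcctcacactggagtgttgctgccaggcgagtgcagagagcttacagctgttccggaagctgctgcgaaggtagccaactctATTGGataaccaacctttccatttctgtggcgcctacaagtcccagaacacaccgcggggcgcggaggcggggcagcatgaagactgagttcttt
Psmd9: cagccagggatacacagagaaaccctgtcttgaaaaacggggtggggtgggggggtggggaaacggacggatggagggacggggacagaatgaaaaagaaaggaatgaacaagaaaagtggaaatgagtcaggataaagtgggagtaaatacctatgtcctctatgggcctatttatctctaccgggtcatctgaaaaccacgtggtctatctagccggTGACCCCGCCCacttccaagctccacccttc
Psma7: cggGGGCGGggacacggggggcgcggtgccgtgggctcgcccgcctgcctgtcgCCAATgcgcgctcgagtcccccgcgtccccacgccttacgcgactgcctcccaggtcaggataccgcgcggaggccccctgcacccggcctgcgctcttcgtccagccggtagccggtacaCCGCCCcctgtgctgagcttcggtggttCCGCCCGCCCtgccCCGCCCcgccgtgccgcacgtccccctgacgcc
Psmc2 upstream start: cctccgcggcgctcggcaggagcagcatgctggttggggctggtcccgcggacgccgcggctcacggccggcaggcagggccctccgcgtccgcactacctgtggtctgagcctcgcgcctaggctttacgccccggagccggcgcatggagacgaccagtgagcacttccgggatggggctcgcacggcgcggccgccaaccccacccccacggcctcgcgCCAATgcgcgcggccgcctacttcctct
Psmc2 downstream start: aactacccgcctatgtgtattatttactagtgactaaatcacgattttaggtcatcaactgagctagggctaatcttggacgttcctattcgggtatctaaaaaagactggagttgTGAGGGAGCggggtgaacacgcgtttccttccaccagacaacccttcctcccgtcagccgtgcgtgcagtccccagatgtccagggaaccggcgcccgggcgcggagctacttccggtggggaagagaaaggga

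The marked letters differed between these promoters. Psmd9 held an antioxidant response element match, TGACCCCGC, 31 bases before its start, which overlaps a GC box match on the opposite strand 26 bases before the start. At Psmc2 the downstream window held such a match, TGAGGGAGC, 134 bases before the start, and the upstream window held a CCAAT box 28 bases before its own. Psma7 had a CCAAT box 196 bases before the start and 5 GC box matches, 2 of which overlap. In Psmd4 the capitals are a CCAAT box on the opposite strand, 95 bases before the start.

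Over the full window of 250 bases before to 50 bases after the start, 13 of the 27 promoters (48.1%) held the antioxidant response element letters, against 33.0% of the promoters of 14749 tested genes. The CCAAT box was in 40.7% of the proteasome promoters and 41.9% of all, and the GC box in 63.0% and 53.4%. The forkhead letters GTAAACA were in 0 of the 27 and in 3.50% of all. Of the 19 members with a promoter that rose with fasting over both genotypes, 10 held the antioxidant response element letters, and of the 8 others with a promoter 3 did. A match is a run of letters and does not show that a factor binds there.

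Fasting raised constitutive proteasome genes broadly and by small amounts, and no member was called lower. A contrast averaged over both genotypes was added after the values were seen. In it 22 of the 34 genes were higher in fasted than in fed liver and 0 were lower. Calls were made by limma's moderated test at an adjusted p below 0.05. Of all 18820 genes 8.4% were higher and 9.88% lower by the same rule. The median log2 difference of the 34 genes was 0.26, against 0.02 for all genes. The largest rises were those of Psmd4, a ubiquitin receptor of the cap, and Psmd9, an assembly chaperone of the base. In the core 6 of 14 genes rose and in the cap 15 of 17, with median log2 differences of 0.19 and 0.30. The difference between core and cap was not tested. Of the 9410 genes above the median level, which include all the members except Psma8, 13.2% were called higher. In wild type alone 1 of 14 core and 8 of 17 cap genes were called higher, where 3.34% of all genes were. Without fasted WT 4 that cap count was 2. In knockout alone the counts were alike, 6 of 14 and 7 of 17, where 4.53% of all genes were called higher.

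The averaged count, 22, lay between 17 and 24 when arrays were left out. For these fits the shares of all genes called are not given here. It was 21 without fasted WT 4 and fed KO 4, with 5 core and 15 cap genes, and 17 without the 3 arrays whose names end in 2, with 4 core and 12 cap genes. Leaving out each array in turn gave 20 to 24, and 20 of the 22 genes held their call whichever array was left out. The exceptions were Psmb6, the subunit that cuts after acidic residues, and Psmd2, a scaffold of the base, whose highest adjusted p in limma was 0.084 for each.

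**Figure D1:**
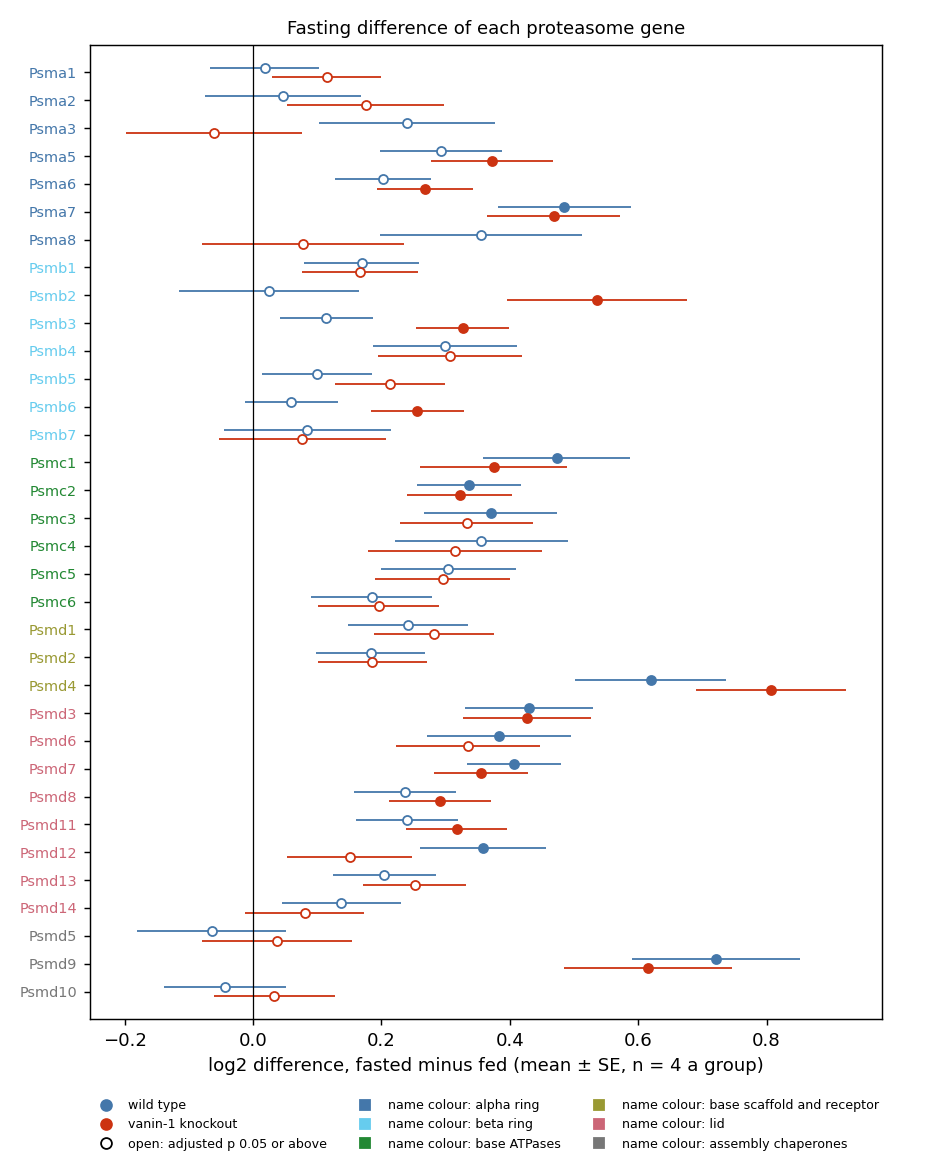
Log2 difference of fasted minus fed liver on the x axis (mean ± SE, 4 arrays a group) for each of the 34 genes, in wild type (blue) and knockout (red), with filled points where limma's adjusted p was below 0.05. In wild type 32 points and in knockout 33 points lie right of 0, and Psmd4 and Psmd9 lie farthest right in both genotypes, between 0.61 and 0.81.

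Each genotype alone gave fewer calls than the average. In wild type 10 of the 34 genes were called higher and 0 lower, where 3.34% of all genes were called higher and 4.27% lower. In knockout 14 were called higher and 0 lower, where 4.53% of all genes were called higher and 4.89% lower. The median log2 difference was 0.24 in wild type and 0.29 in knockout, against 0.01 and 0.02 for all genes. The difference was positive for 32 of the 34 genes in wild type and 33 in knockout, against 52.7% and 55.0% of all genes. It was positive in both genotypes for 31 members. Members shift together by array, as the array means below show, so these counts do not hold independent observations.

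These single counts depended on the arrays used. The shares of all genes called in each of these fits are not given here, so the counts have no background beside them. In wild type the count was 4 without fasted WT 4, 6 without fed WT 2 or without fed WT 4, and 4 when the fit held only the fed and fasted wild type arrays. It was 5 without fasted WT 4 and fed KO 4, and 5 without the 3 arrays whose names end in 2. In knockout it was 8 without fasted KO 1 or without fasted KO 3, 9 without fasted KO 4 or without fed KO 1, and 2 without the 3 arrays whose names end in 2. In every fit that left out 1 array, the calls of Psma7, Psmd4, Psmd7 and Psmd9 held in both genotypes, and those of Psmb3 and Psmd3 held in knockout. Without the 3 arrays whose names end in 2, the knockout calls of Psma7, Psmb3, Psmd3, Psmd7 and Psmd9 were lost. Their limma adjusted p-values were then 0.052 to 0.080. Psmd4 kept its call there in both genotypes, and Psma7, Psmd7 and Psmd9 kept theirs in wild type.

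The members called higher in both genotypes were 7, namely Psma7, Psmc1, Psmc2, Psmd4, Psmd3, Psmd7 and Psmd9, where 2.05% of all genes were. Every fasted array lay above every fed array for 12 members in wild type, as it did for 6.02% of all genes. In knockout this held for 16 members and for 8.89% of all genes. It held in both genotypes for 10 members, the 7 just named and Psma5, Psmd6 and Psmd11, and for 2.79% of all genes.

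The mean over 33 members was higher on every fasted array than on every fed array. Psma8, which replaces Psma7 in the testis, is left out of this mean because its average level of 4.26 lay under the median of every array. The mean was 9.60 ± 0.075 (SD, n = 4) in fed WT, 9.67 ± 0.040 in fed KO, 9.85 ± 0.10 in fasted WT and 9.95 ± 0.12 in fasted KO. The fed arrays lay between 9.51 and 9.72 and the fasted arrays between 9.75 and 10.03, without overlap. Within the fasted groups the members moved together by array, since fasted WT 4 was the highest of its group for 22 of the 33 genes and fasted KO 2 the lowest of its group for 29. Fasted WT 4 is the array with the exocrine pancreas markers, whose part in its high values was not tested. Both arrays also had the highest Saa2 and Orm2 of their group, and the part of this in their values was not tested either. Without fasted WT 4 and fed KO 4 the median log2 difference of the 34 genes in wild type was 0.20.

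**Figure D2:**
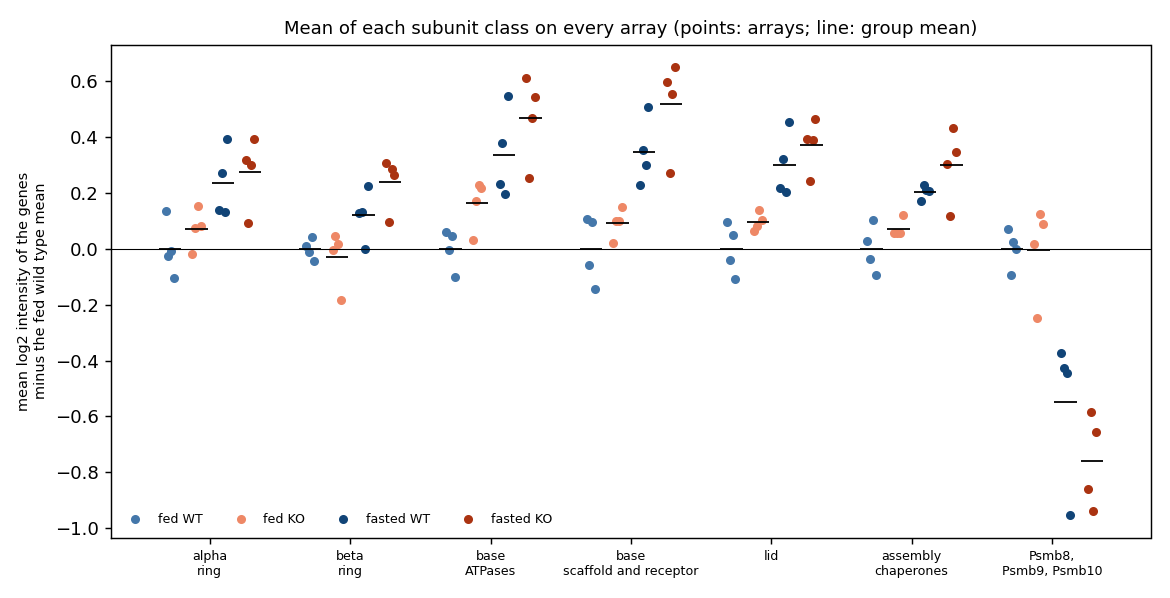
Mean log2 intensity of the genes of each subunit class on every array, minus the fed wild type mean (y axis), with points for the 16 arrays by group and a line at each group mean; the last column shows the immunoproteasome subunits Psmb8, Psmb9 and Psmb10. The fasted means lie above the fed means of the same genotype in the 6 constitutive classes and below them for the immunoproteasome subunits, and fasted KO 2 is the lowest fasted KO point of each constitutive class.

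In the alpha ring, whose N-terminal tails gate the entrance to the core, 3 of 7 genes rose over both genotypes, with a median log2 difference of 0.22. Psma7 read 9.06, 8.79, 8.90 and 8.93 on the fed WT arrays, 8.90, 9.16, 8.98 and 9.09 on the fed KO arrays, 9.32, 9.56, 9.20 and 9.55 on the fasted WT arrays and 9.63, 9.25, 9.50 and 9.63 on the fasted KO arrays. All 8 fasted arrays lay above all 8 fed arrays, and the genotypes overlapped in each state. Fasting raised it by 0.48 ± 0.10 (log2 difference ± SE) in wild type and by 0.47 ± 0.10 in knockout, 1.40-fold and 1.38-fold, with limma adjusted p-values of 0.0083 and 0.0077.

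Psma5, the next alpha subunit by its rise, read 8.99, 8.84, 8.87 and 8.75 on the fed WT arrays, 8.94, 8.76, 8.78 and 9.11 on the fed KO arrays, 9.10, 9.21, 9.23 and 9.08 on the fasted WT arrays and 9.12, 9.19, 9.50 and 9.27 on the fasted KO arrays. Each fasted group lay above its own fed group, although fed KO 4 at 9.11 lay above the lowest fasted WT array. The log2 difference was 0.29 ± 0.095 in wild type (limma adjusted p = 0.074) and 0.37 ± 0.095 in knockout (limma adjusted p = 0.019). The knockout call was lost without fasted KO 3, fed KO 2 or fed KO 3, with an adjusted p of up to 0.066. A second probe set of Psma5 had log2 differences of 0.22 in wild type and 0.51 in knockout.

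The rest of the alpha ring moved less. Psma6 rose by 0.27 in knockout and by 0.24 over both genotypes on the log2 scale, with limma adjusted p-values of 0.031 and 0.0046. Psma1, Psma2 and Psma3 had averaged log2 differences of 0.07 to 0.11, and Psma8, under the array medians, 0.22; all 4 had adjusted p-values from 0.20 to 0.59. The kept probe set of Psma3 and its other 2 gave averaged differences of 0.04 to 0.11. The probe table does not tell which of several probe sets lies in the gene itself and which in a near-identical copy.

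In the beta ring 3 of 7 genes rose over both genotypes, Psmb3, Psmb4 and Psmb6, with a class median of 0.17. Psmb3, a structural beta subunit, read 12.04, 11.99, 12.03 and 12.02 on the fed WT arrays, 11.96, 12.07, 11.87 and 11.92 on the fed KO arrays, 12.19, 12.17, 12.01 and 12.16 on the fasted WT arrays and 12.43, 12.16, 12.24 and 12.30 on the fasted KO arrays. The fed and fasted KO arrays did not overlap, whereas in wild type fasted WT 3 lay within the fed range. Its log2 difference was 0.33 ± 0.073 in knockout (1.25-fold, limma adjusted p = 0.0082) and 0.11 ± 0.073 in wild type (limma adjusted p = 0.40). A second probe set of Psmb3 gave 0.16 in knockout (limma adjusted p = 0.23) and 0.12 over both genotypes (limma adjusted p = 0.14). The knockout call and the call over both genotypes thus rest on the choice of probe set.

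Psmb2, another structural beta subunit, had the largest gap between the genotypes' fasting differences. Its values were 10.12, 10.67, 10.36 and 10.45 on the fed WT arrays, 10.18, 10.09, 10.15 and 9.84 on the fed KO arrays, 10.85, 10.32, 10.18 and 10.36 on the fasted WT arrays and 10.52, 10.73, 10.74 and 10.42 on the fasted KO arrays. The fed KO arrays lay below the fasted KO arrays and below 3 of the 4 fed WT arrays, and the wild type groups overlapped. Its fasting difference on the log2 scale was 0.54 ± 0.14 in knockout (1.45-fold, limma adjusted p = 0.022) and 0.02 ± 0.14 in wild type (limma adjusted p = 0.95). The difference between the 2 responses was 0.51, with a 95% interval of 0.09 to 0.93 and a limma adjusted p of 0.95 over all genes. The knockout call was lost without fasted KO 2, fasted KO 3 or fed KO 4, with an adjusted p of up to 0.070.

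The catalytic subunits changed little at the RNA level. Psmb5, the chymotrypsin-like subunit, had an averaged log2 difference of 0.16 ± 0.061 (limma adjusted p = 0.086). Psmb6, the caspase-like subunit, rose by 0.16 ± 0.052 (limma adjusted p = 0.042), and Psmb7, the trypsin-like subunit, had 0.08 ± 0.092 (limma adjusted p = 0.60). In knockout alone Psmb6 rose by 0.26 (limma adjusted p = 0.035). Of the remaining structural subunits Psmb4 rose by 0.30 on average (limma adjusted p = 0.013), and Psmb1 had 0.17 (limma adjusted p = 0.079).

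The ring of 6 ATPases rose nearly as a whole, with 5 of 6 called over both genotypes and averaged log2 differences between 0.19 and 0.42. Psmc1, whose tail helps to open the gate of the core, read 9.39, 9.03, 9.10 and 9.29 on the fed WT arrays, 9.23, 9.36, 9.43 and 9.48 on the fed KO arrays, 9.45, 9.74, 9.53 and 9.98 on the fasted WT arrays and 9.89, 9.57, 9.75 and 9.79 on the fasted KO arrays. Fasted and fed arrays of the same genotype did not overlap, and fasted WT 4 was the highest array. The log2 difference was 0.47 ± 0.11 in wild type and 0.37 ± 0.11 in knockout, 1.39-fold and 1.30-fold, with limma adjusted p-values of 0.017 and 0.049. Its wild type call was lost without fasted WT 4 or fed WT 2, with an adjusted p of up to 0.061. The knockout call was lost in 11 of the 16 fits that left out 1 array, up to 0.15. A second probe set of Psmc1 gave 0.46 and 0.49.

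Psmc2, a neighbouring ATPase of that ring, read 8.41, 8.62, 8.46 and 8.42 on the fed WT arrays, 8.46, 8.65, 8.68 and 8.57 on the fed KO arrays, 8.81, 8.78, 8.70 and 8.97 on the fasted WT arrays and 9.05, 8.83, 8.92 and 8.83 on the fasted KO arrays. The 8 fasted arrays lay above the 8 fed arrays. Its log2 difference was 0.34 ± 0.082 in wild type and 0.32 ± 0.082 in knockout, with limma adjusted p-values of 0.017 and 0.018. The wild type call was lost without fasted WT 4, fed WT 1 or fed WT 4, and the knockout call without fasted KO 1 or fed KO 1. Over both genotypes its adjusted p was 0.00065.

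The remaining ATPases, subunits of the same ring, rose over both genotypes with the exception of Psmc6. Psmc3, Psmc4 and Psmc5 had averaged log2 differences of 0.35, 0.34 and 0.30 with limma adjusted p-values of 0.0026, 0.020 and 0.0089. Psmc3 was also called in wild type alone, at 0.37 (limma adjusted p = 0.037), a call lost without any 1 of the fed WT arrays and without fasted WT 2 or fasted WT 4. Psmc6 had 0.19 with an adjusted p of 0.058.

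All 3 scaffold and receptor subunits of the base rose over both genotypes, and Psmd4 rose most. Psmd4, which binds ubiquitin chains, read 9.23, 9.02, 9.13 and 8.97 on the fed WT arrays, 9.07, 9.27, 9.22 and 9.13 on the fed KO arrays, 9.56, 9.75, 9.54 and 9.98 on the fasted WT arrays and 10.19, 9.67, 9.91 and 10.15 on the fasted KO arrays. Every fasted array lay above every fed array, and fasted KO 1 and fasted KO 4 were the highest. Group means were 9.09 ± 0.12 (SD, n = 4) in fed WT, 9.17 ± 0.089 in fed KO, 9.71 ± 0.20 in fasted WT and 9.98 ± 0.24 in fasted KO. Fasting raised it by 0.62 ± 0.12 in wild type and by 0.81 ± 0.12 in knockout on the log2 scale, 1.54-fold and 1.75-fold. Limma adjusted p-values were 0.0037 and 3.0e-04, and the call held under all 33 alternative settings in each genotype.

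The scaffolds Psmd1 and Psmd2 rose by less. Their averaged log2 differences were 0.26 ± 0.066 (limma adjusted p = 0.0099) and 0.18 ± 0.060 (limma adjusted p = 0.041). Neither was called in a single genotype. A second probe set of Psmd2 gave an averaged difference of 0.25.

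**Figure D3:**
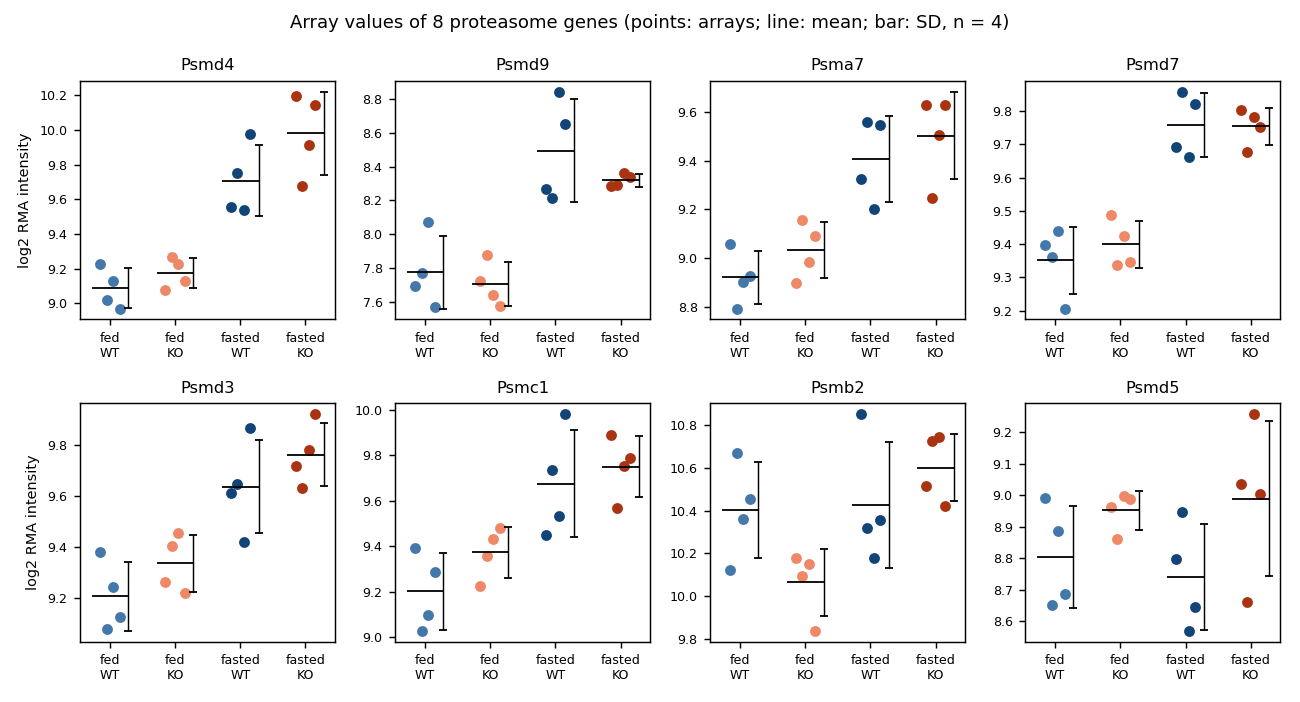
Log2 RMA intensity (y axis, a separate scale for each gene) of 8 proteasome genes on the 16 arrays, with points for arrays, a line for the mean and a bar for the SD of each group of 4. For Psmd4, Psmd9, Psma7, Psmd7, Psmd3 and Psmc1 the fasted groups lie above the fed group of the same genotype without overlap, whereas Psmb2 separates in knockout and Psmd5 in neither.

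In the lid, which carries the deubiquitinase Psmd14, 7 of 8 genes rose over both genotypes with a median log2 difference of 0.27. Psmd7, the partner of that deubiquitinase, read 9.40, 9.36, 9.44 and 9.21 on the fed WT arrays, 9.49, 9.34, 9.43 and 9.35 on the fed KO arrays, 9.69, 9.86, 9.66 and 9.82 on the fasted WT arrays and 9.80, 9.68, 9.78 and 9.75 on the fasted KO arrays. The fed arrays ended at 9.49 and the fasted arrays began at 9.66. The log2 difference was 0.41 ± 0.073 in wild type and 0.36 ± 0.073 in knockout, 1.33-fold and 1.28-fold, with limma adjusted p-values of 0.0027 and 0.0046. These were the smallest standard errors among the lid genes.

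Psmd3, a structural lid subunit, read 9.38, 9.08, 9.24 and 9.12 on the fed WT arrays, 9.26, 9.40, 9.45 and 9.22 on the fed KO arrays, 9.61, 9.65, 9.42 and 9.87 on the fasted WT arrays and 9.72, 9.63, 9.78 and 9.92 on the fasted KO arrays. Fasted and fed arrays of a genotype did not overlap, though fasted WT 3 was lower than 1 fed KO array. Both genotypes had a log2 difference of 0.43 ± 0.10, with limma adjusted p-values of 0.014 in wild type and 0.011 in knockout. Without fasted WT 4 the wild type call was lost, at an adjusted p of 0.053.

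Psmd11, a lid subunit that joins the lid to the base and core, read 10.32, 10.05, 10.13 and 10.18 on the fed WT arrays, 10.26, 10.22, 10.28 and 10.06 on the fed KO arrays, 10.38, 10.36, 10.39 and 10.51 on the fasted WT arrays and 10.62, 10.38, 10.53 and 10.56 on the fasted KO arrays. The groups of each genotype did not overlap. It rose by 0.32 ± 0.079 on the log2 scale in knockout (1.25-fold, limma adjusted p = 0.016) and 0.24 ± 0.079 in wild type (limma adjusted p = 0.078). The knockout call was lost without fasted KO 1, fasted KO 4 or fed KO 4, at up to 0.060.

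Psmd12, also structural, read 9.80, 9.44, 9.62 and 9.58 on the fed WT arrays, 9.82, 9.66, 9.78 and 9.94 on the fed KO arrays, 9.78, 9.96, 9.97 and 10.17 on the fasted WT arrays and 9.95, 9.79, 10.01 and 10.05 on the fasted KO arrays. In wild type 1 fasted array lay within the fed range, and in knockout the groups overlapped. The log2 difference was 0.36 ± 0.098 in wild type (limma adjusted p = 0.033) and 0.15 ± 0.098 in knockout (limma adjusted p = 0.41). The wild type call was lost in 6 of the 16 fits that left out 1 array, at up to 0.12. The difference between the 2 responses was not past the threshold either.

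Of the other lid genes Psmd6 was called in wild type, at 0.38 (limma adjusted p = 0.046), and Psmd8 in knockout, at 0.29 (limma adjusted p = 0.028). Psmd13 was called over both genotypes at 0.23 (limma adjusted p = 0.0091). Psmd14, the deubiquitinase, was the lid gene not called, at 0.11 ± 0.066 (limma adjusted p = 0.28). The calls of Psmd6 and Psmd8 were lost without single arrays, at up to 0.16 and 0.092.

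The 3 assembly chaperones, which help to build the ATPase ring and leave the finished particle, did not move together. Psmd9 read 7.69, 7.77, 8.07 and 7.57 on the fed WT arrays, 7.72, 7.88, 7.64 and 7.58 on the fed KO arrays, 8.27, 8.21, 8.84 and 8.66 on the fasted WT arrays and 8.28, 8.29, 8.36 and 8.34 on the fasted KO arrays. Every fasted array lay above every fed array, and fasted WT 3 and fasted WT 4 were higher than the 4 fasted KO arrays, which lay between 8.28 and 8.36. Group means were 7.77 ± 0.22 (SD, n = 4) in fed WT, 7.70 ± 0.13 in fed KO, 8.50 ± 0.30 in fasted WT and 8.32 ± 0.039 in fasted KO. On the log2 scale fasting raised it by 0.72 ± 0.13 in wild type and by 0.61 ± 0.13 in knockout, 1.65-fold and 1.53-fold, with limma adjusted p-values of 0.0029 and 0.0060.

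Psmd5 and Psmd10, the other chaperones, had the smallest averaged differences of the 34 genes. Psmd5 read 8.99, 8.65, 8.89 and 8.69 on the fed WT arrays, 8.96, 8.86, 9.00 and 8.99 on the fed KO arrays, 8.80, 8.95, 8.57 and 8.65 on the fasted WT arrays and 9.04, 8.66, 9.26 and 9.00 on the fasted KO arrays. The fed and fasted arrays overlapped in both genotypes. Its log2 differences were -0.06 ± 0.12 in wild type and 0.04 ± 0.12 in knockout, with limma adjusted p-values of 0.81 and 0.89.

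Psmd10, also known as gankyrin, read 7.76, 7.82, 7.69 and 7.81 on the fed WT arrays, 7.83, 7.78, 7.88 and 8.15 on the fed KO arrays, 7.80, 7.88, 7.56 and 7.67 on the fasted WT arrays and 7.94, 7.75, 8.03 and 8.05 on the fasted KO arrays. Its groups overlapped as well, with fed KO 4 the highest array. Its log2 differences were -0.04 ± 0.095 and 0.03 ± 0.095, with limma adjusted p-values of 0.85 and 0.89.

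Vanin-1 loss gave no call on any of the 34 genes in limma. Fed KO against fed WT called 0 of the 34 genes, where 0.00531% of all genes, a single gene, were called. Fasted KO against fasted WT also called 0, where 0.0159% of all genes were called, and the knockout averaged over both states called 0, where 0.00531% of all genes were called. The difference between the fasting responses called 0 members and 0% of all genes. At an unadjusted p below 0.05 there were 1, 4, 4 and 1 members in that order, and 1084, 1033, 1161 and 924 of all genes. The lowest limma adjusted p of a member was 0.85 in fed, 0.87 in fasted liver and 0.95 for the difference of responses.

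The sizes of the genotype differences were nonetheless mostly of 1 sign. The knockout mean was the higher for 28 of the 34 genes in fed liver and for 29 in fasted liver. Among all genes it was the higher for 47.9% in fed and 50.5% in fasted liver. For 24 members it was the higher in both states, a count for which the share of all genes was not computed. The median log2 difference was 0.09 in fed and 0.11 in fasted liver, against -0.01 and 0.00 for all genes. The 95% intervals of single members reached from -0.63 to 0.55 in fed and from -0.56 to 0.52 in fasted liver. The arrays of a genotype share their shifts over many members, as the array means above show, so the number of genes with 1 sign does not count independent observations.

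Psmb2 in fed liver had the largest negative genotype difference, -0.34 with an interval of -0.63 to -0.04. In fasted liver Psmd4 had the largest positive one, 0.28 with an interval of 0.03 to 0.52, and Psmd5, Psmd10 and Psmb6 followed at 0.25, 0.21 and 0.18. The knockout arrays all lay above the wild type arrays for 1 member in fed liver, Psmc3, where 1.28% of all genes did so. In fasted liver this held for 1 member, Psmb6, and for 1.65% of all genes, so these counts are near the background.

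**Figure D4:**
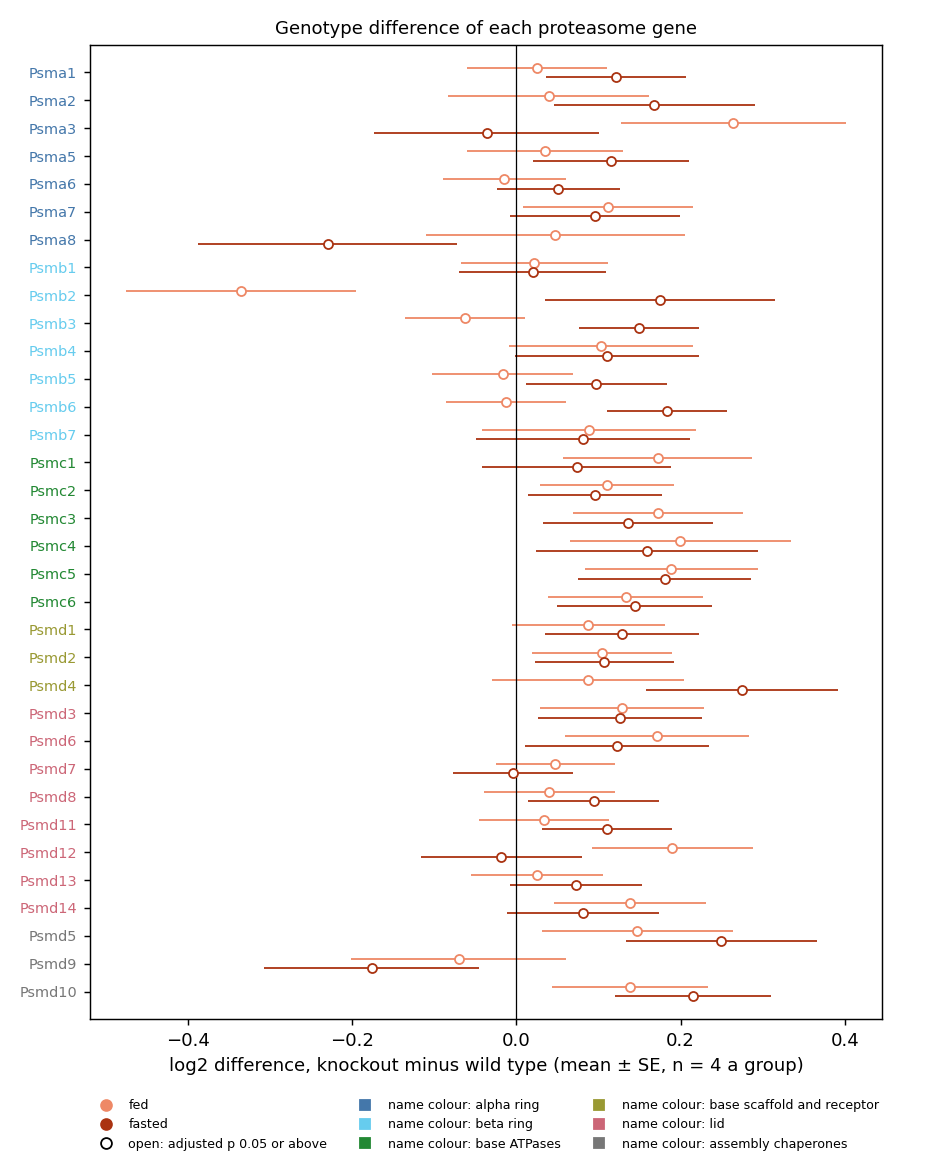
Log2 difference of knockout minus wild type liver on the x axis (mean ± SE, 4 arrays a group) for each of the 34 genes, in the fed (light) and the fasted (dark) state; all points are open because limma's adjusted p was 0.05 or above. Most points lie right of 0, 28 in fed and 29 in fasted liver, with Psmb2 in fed liver the farthest left at -0.34.

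The immunoproteasome genes moved the other way. This variant core carries Psmb8, Psmb9 and Psmb10 in place of Psmb5, Psmb6 and Psmb7, is induced by interferon and is abundant in immune cells. A list of 6 held these with the cap subunits Psme1 and Psme2 and the thymus subunit Psmb11. Of the 6, 3 fell in wild type, 4 in knockout and 4 over both genotypes, with none higher. The shares of all genes called lower in these comparisons were 4.27%, 4.89% and 9.88%. Psmb10 read 8.63, 8.70, 8.66 and 9.09 on the fed WT arrays, 8.66, 8.41, 8.70 and 8.93 on the fed KO arrays, 8.20, 8.09, 7.93 and 7.41 on the fasted WT arrays and 7.52, 7.90, 7.60 and 7.76 on the fasted KO arrays. All fasted arrays were lower than all fed arrays, with fasted WT 4 the lowest. It fell by 0.87 in wild type and by 0.98 in knockout on the log2 scale, with limma adjusted p-values of 0.0029 and 7.1e-04.

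Psmb8 read 7.75, 7.53, 7.71 and 7.51 on the fed WT arrays, 7.73, 7.61, 7.99 and 7.69 on the fed KO arrays, 7.33, 7.55, 7.50 and 7.05 on the fasted WT arrays and 6.85, 7.19, 6.69 and 7.09 on the fasted KO arrays. The knockout groups did not overlap and the wild type groups did. Psmb8 fell by 0.80 in knockout (limma adjusted p = 5.9e-04), and its difference in wild type was -0.27 (limma adjusted p = 0.23). Psmb9 fell by 0.51 and by 0.48, and Psme2 fell by 0.47 and by 0.52, in wild type and knockout.

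The mean of Psmb8, Psmb9 and Psmb10 was 8.06 ± 0.069 (SD, n = 4) in fed WT, 8.05 ± 0.17 in fed KO, 7.51 ± 0.27 in fasted WT and 7.30 ± 0.17 in fasted KO. The fed arrays lay between 7.81 and 8.18 and the fasted arrays between 7.10 and 7.68. Of 10 Kupffer cell and macrophage markers 4 were also called lower over both genotypes, where 9.88% of all genes were called lower. The array means of these markers ranged from 8.62 to 9.34 in fed WT and from 8.48 to 8.76 in fed KO. In fasted WT they ranged from 8.33 to 8.83 and in fasted KO from 8.14 to 8.83. All 10 lay above the array medians on average. Of 6 stellate cell markers 4 were called lower over both genotypes, with array means of 8.03 to 8.34 in fed WT, 8.04 to 8.23 in fed KO, 7.78 to 8.03 in fasted WT and 7.68 to 7.82 in fasted KO. The 1 measured erythroid marker, Alas2, fell by 0.82 in wild type and by 0.80 in knockout, with limma adjusted p-values of 2.3e-04 and 1.2e-04. It ranged from 10.03 to 10.26 on the fed arrays and from 9.07 to 9.65 on the fasted arrays. The part of these cell types in the immunoproteasome values was not tested.

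Genes that deliver ubiquitinated proteins to the proteasome also rose. Of 8 measured genes for ubiquitin activation and delivery, 2 rose in wild type, 4 in knockout and 6 over both genotypes, with none lower. The shares of all genes called higher in these comparisons were 3.34%, 4.53% and 8.4%. Ufd1, which pulls ubiquitinated proteins out of complexes together with Nploc4 and Vcp, read 8.50, 8.43, 8.59 and 8.39 on the fed WT arrays, 8.45, 8.43, 8.31 and 8.40 on the fed KO arrays, 8.90, 8.88, 8.68 and 8.91 on the fasted WT arrays and 9.10, 9.03, 8.87 and 8.85 on the fasted KO arrays. The fasted arrays all lay above the fed arrays. Ufd1 rose by 0.36 in wild type and 0.57 in knockout, with limma adjusted p-values of 0.0093 and 2.3e-04. Nploc4 rose by 0.27 and 0.28, and the shuttle Ubqln2 by 0.36 in knockout (limma adjusted p = 0.0081). The wild type call of Nploc4 was lost in 5 of 33 alternative settings, at up to 0.097.

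Among the other activators and inhibitors of the core, 0 of 4 were called in either genotype. Over both genotypes 2 were called higher, where 8.4% of all genes were. These were Psme3 at 0.17 and Ecpas, which holds core and cap together, at 0.21, with limma adjusted p-values of 0.044 and 0.013. The inhibitor Psmf1 had 0.13 (limma adjusted p = 0.32). None of the 5 measured core assembly factors was called in either genotype or over both; Psmg2, Psmg3 and Pomp had averaged differences of -0.04, -0.06 and -0.09. Of the cap subunits outside the symbol pattern, Sem1 had -0.09 and Uchl5, a cap-bound deubiquitinase, fell by 0.30 in knockout (limma adjusted p = 0.026). The call of Uchl5 was lost in 8 of 33 alternative settings, at up to 0.18.

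Of 7 measured regulators of subunit transcription, Foxo1 was called higher in both genotypes, as were 2.05% of all genes. Foxo1, a forkhead factor held in check by insulin signalling, rose by 0.53 in wild type and 0.40 in knockout, with limma adjusted p-values of 0.0080 and 0.032. Its knockout call was lost in 9 of 33 alternative settings, 5 of them fits that left out 1 array, at up to 0.19. Nfe2l1, the regulator named above, rose by 0.29 over both genotypes (limma adjusted p = 0.016), with 0.24 in wild type and 0.35 in knockout that did not pass. Nfe2l2, which binds the antioxidant response element, had -0.28 and -0.02, neither past the threshold.

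Of 4 ubiquitin ligase genes known to rise in wasting muscle, 1 was called higher in each genotype. Among all genes 3.34% were called higher in wild type and 4.53% in knockout. Fbxo31 rose by 0.86 in wild type and 0.66 in knockout, with limma adjusted p-values of 0.0053 and 0.021. Its knockout call was lost in 5 of 33 alternative settings, at up to 0.078. Fbxo32 and Trim63 were not called, and Fbxo30 fell by 0.24 over both genotypes (limma adjusted p = 0.031).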

How the data were processed

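Liver RNA of 16 samples was hybridised to whole-transcript arrays. The deposited values are log2 intensities that the authors made with RMA, per the submitters' processing notes, with version, library files and build not given in the sources used here. RMA quantile normalises by default, so a change shared by most genes would be removed. Its 35556 probe sets spanned 1.26 to 14.19, and 0 columns lacked a sample.

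Probe sets were named by GEO's platform annotation, 21218 with 1 symbol, 1881 with several and 12457 unnamed. The 34 members matched RefSeq symbols by Entrez identifier. All 18820 genes were fitted with limma 3.58.1 (R 4.3.3), using 4 group means over 16 arrays with 12 residual and 4.66 prior degrees of freedom. Tests were two-sided, and calls were made at a Benjamini-Hochberg adjusted p below 0.05, computed over every gene in each contrast. No filter on dim genes was applied. The contrasts averaged over genotype or state were added after the values were seen. The procedure was tested on simulated data.

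The members, lists, motifs and alternatives were chosen with earlier results of these data known. All array values are given for up to 12 called members with the smallest p and for the 2 largest and 2 smallest mean fasting differences, and of each other list up to 3 genes with the smallest p are named. Psmb9, Nploc4 and Trim63 are also named to complete their lists, and Psmb6, Psmb7, Psmd14 and the other members by role. Promoters were those of members called in both genotypes, at most 4 with the smallest summed p. Psma4 was left out because its only probe set carries several symbols. The array number limits the precision.

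Alternative settings covered normalisation (centring each array on its median, quantile, cyclic loess), dim gene filters (30th percentile or median of level), the mean or all of a gene's probe sets, the variance prior (trended, robust), array weights, a fit on the compared groups alone, a block for the title number or for the plate column, arrays left out singly or together, and other thresholds.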

Additional observations from a re-analysis of the deposited data

Results flagged for a closer look

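A single array lay far from the other 3 of its group for 14 of 220 group values of members and other pathway genes, 6 of them among the 136 group values of the members. Chance gives about 1 in 20 such cases.

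Among the members, Psmd14 read 9.56 on fed WT 4, below 9.84 to 9.90 on the other fed WT arrays. Psmb1 read 9.06 on fed KO 4, below 9.37 to 9.44, and Psmd6 read 9.44 on fed KO 1, below 9.61 to 9.65. On fasted KO 2, the array with the lowest mean of its group, Psma1 read 10.43 (others 10.77 to 10.83), Psmc3 read 8.54 (others 8.95 to 9.01) and Psmd2 read 10.66 (others 10.92 to 10.96).

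Among the other pathway genes, fed WT 4 was high for Psmb10, at 9.09 against 8.63 to 8.70, and for the ligase gene Fbxo30, at 8.14 against 7.67 to 7.73. Fasted WT 4 was low for Psme2, at 9.88 against 10.19 to 10.23, and high for the ligase gene Fbxo32, at 6.53 against 6.22 to 6.25. Ecpas was low on fasted WT 1, at 9.72 against 9.99 to 10.02, and Ufd1 was low on fasted WT 3, at 8.68 against 8.88 to 8.91. Sem1 was low on fasted KO 2, at 8.74 against 9.09 to 9.12, and Nfe2l2 was low on fasted KO 4, at 9.81 against 9.94 to 9.96.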

How the results depend on the processing

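No called result changed direction under the alternatives run; the median difference between the fasting responses, 0.01 and with no call, ran from -0.03 to 0.08. The count of members higher in fasted wild type, 10 of 34, was 4 with only the groups compared, 5 without fasted WT 4 and fed KO 4, 5 without the 3 arrays whose names end in 2, and 4 at an adjusted p below 0.01. Leaving out each array in turn gave 4 to 11. The knockout count, 14, was 2 without the arrays whose names end in 2 and 5 at an adjusted p below 0.01, and 8 to 17 with single arrays left out. The counts at 0.01 come from the same fit with a stricter threshold, and the other settings fitted fewer arrays; the cause was not tested otherwise. The averaged count, 22, ranged from 15 when at least a 1.2-fold change was also asked for to 25 among genes above the median level. Centring each array on its median gave 10 in wild type, 10 in knockout and 20 on average. The median log2 difference stayed between 0.20 and 0.29 in wild type and between 0.25 and 0.35 in knockout. Genotype comparisons and the difference of responses called 0 members in every setting run. Shares of all genes called under the alternative settings are not given here. Title numbers were not treated as pairs in the main fit. Correlations of deviations between same-numbered arrays ran from -0.22 to 0.21, with 4 of 24 over 0.1. Only 3 of 16 arrays correlated best with an array of their own number. Such correlations cannot exclude a pairing of the samples, and odd and even title numbers lay in different plate columns. With the title number as a replicate block the counts were 9 in wild type, 11 in knockout and 20 on average. Differences below about 0.2 on the log2 scale were within the median half-width of the 95% intervals of single comparisons, 0.20, so members not called may still have changed by such amounts.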
